A study of Homo sapiens with 4 samples.

Results

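The genes described here encode the subunits of the mitochondrial respiratory chain and ATP synthase that are made from nuclear DNA, with a few of their helpers. They were chosen by name, as every gene probe whose symbol begins with NDUFA, NDUFB, NDUFC, NDUFS, NDUFV, SDHA, SDHB, SDHC, SDHD, UQCR, COX4, COX5, COX6, COX7, COX8 or ATP5, or is CYC1 or CYCS. This took 113 of the 24460 gene probes, which stand for 102 of 17559 named genes. Of the probes, 99 matched by the symbol printed on the array and 14 only by the gene's current symbol. The 102 genes were 77 subunits used in most tissues, 11 assembly factors and 8 isoforms or paralogues. The rest were 1 inhibitor of ATP synthase, 2 pseudogenes and 3 other genes whose older names begin the same way. Of those 3, DMAC2 is also an assembly factor of complex I and is not counted in the 11. No measured value is part of the naming rule.

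The respiratory chain passes electrons from NADH (through complex I) or succinate (through complex II) to coenzyme Q, on through complex III and cytochrome c, and finally through complex IV to oxygen. Complexes I, III and IV pump protons across the inner mitochondrial membrane, and ATP synthase, or complex V, makes ATP from their return flow. Core subunits include those with the electron-transfer or catalytic centres, accessory subunits surround them, and assembly factors help build a complex without being part of it. Complexes I, III, IV and V also need subunits encoded by mitochondrial DNA, of which 0 of 13 were among the named probes, so the nuclear partners alone are described.

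RNA was measured on 4 one-colour arrays and came from Panc1, an established line of human pancreatic cancer cells. The control was the parental line without gemcitabine (1 array). The other group was 3 gemcitabine-resistant clones, GR1, GR3 and GR4 (1 array each), taken by limiting dilution from a single population that had grown in stepwise higher gemcitabine, from 2 to 30 ng/ml, over 2 months. Gemcitabine is a deoxycytidine analogue that stops DNA synthesis, and the labels do not say whether the drug was present when RNA was taken. All 4 cultures were grown in the same medium with 10% serum. The titles name the clones GR1, GR3 and GR4, whereas the treatment text has GR1, GR2 and GR3, and the titles were followed. Because the clones share 1 selection and the parental line has 1 array, every p-value measures only the spread between these clones, and a difference could be a property of the parental culture on its array; parental culture and parental array cannot be told apart.

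The respiratory chain probes were among the brighter ones. Of the 113 probes, 110 lay above the detection limit (the mean of the blank spots plus 2 SD) on all 4 arrays, against 91.5% to 93.7% of all gene probes on each array. Of the 102 genes, 83 were in the brightest of 4 equal groups of tested genes. All 102 genes could be tested, 2 of them (COX7B2 and COX8C) only because they were above the limit in the 3 clones. The 6 epithelial markers measured were above the limit on every array, and summed to 40750 units on the parental array and to 54209 to 63596 on the clones. Gene by gene they were split, 3 being higher and 3 lower than the parental array in all 3 clones, with a median log2 difference of 0.04. All 8 fibroblast markers were above the limit on the parental array and GR1, and 7 on GR3 and GR4, where COL1A2 was at the floor. They summed to 698 units on the parental array and to 364 to 760 on the clones. Of 7 leukocyte markers, 6 were above the limit on every array. PTPRC was at the floor on the parental array and GR4, and CD3E on GR1 and GR3. The leukocyte markers summed to 176 units on the parental array and to 85.5 to 106 on the clones. The part of either marker list in the results was not tested. Signals are given below as log2 of the normalized intensity, where 0.61 is the floor given to dim spots, and differences are log2 of the clones minus log2 of the parental array, with the standard error of the limma fit. A gene is said to rise or fall only where its adjusted p from limma was under 0.05.

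Of the 102 genes, 4 rose in the clones and 0 fell, against 4.06% of all 16592 tested genes that passed in either direction, 2.17% that rose and 1.89% that fell. The 4 were NDUFV3, a subunit of complex I, NDUFAF4, an assembly factor of complex I, COX7B2, an isoform of a complex IV subunit, and EMC8. EMC8 belongs to the membrane protein insertion complex of the endoplasmic reticulum and was caught only through its older name, COX4NB. The share called was thus close to that of the array as a whole. In bulk RNA of this kind, a change in every cell and a change in the share of cells that express a gene cannot be told apart. The same 4 genes were the ones at least 2-fold higher in each of the 3 clones, a rule passed by 7.26% of all tested genes, upward by 3.66% and downward by 3.6%. No member was 2-fold lower in each clone, but 3 were lower and 3 higher by this rule with normexp on spot and background intensities. That treatment left 1.93% of all tested genes 2-fold apart in either direction. With median scaling or no normalization 6 members were higher and 0 lower, where 7.86% and 7.92% of all tested genes were 2-fold apart. At 1.5-fold in each clone, 7 members were higher and 3 lower, against 10.1% and 8.48% of all tested genes; NDUFAF1, NDUFAF2 and NDUFAF8 joined the higher ones, and NDUFB1, NDUFA13 and COX6B2 were the lower ones. Of all called genes 53.4% were higher in the clones, but this share was 68.8% when arrays were scaled to a common median instead of quantile normalized, and 37.0% after the normexp background model on the spot and background intensities. Leaving out any 1 clone left 0 called genes on the whole array, so the calls cannot be checked in this way. With GR1, GR3 or GR4 left out, 4, 6 and 4 members were at least 2-fold higher and 0 were 2-fold lower in both remaining clones. Of all tested genes 7.88%, 10.6% and 7.93% were then 2-fold apart in either direction. The unadjusted p from limma was under 0.05 in 16, 27 and 14 of the 102 members. It was so in 3678 of 16646, 6090 of 16634 and 3545 of 16669 tested genes.

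The upstream sequences of the respiratory chain genes that rose are shown because they range from CpG-rich to CpG-poor, and COX7B is set beside its isoform COX7B2. Each is the 250 bases before the annotated transcript start, from RefSeq on build GRCh38.p14, written 5′ to 3′ on the gene's strand. Capitals mark a match to CCGGAAG, the core bound by ETS factors such as GABPA, on either strand.
NDUFAF4, chr6:96897892-96898141, minus strand: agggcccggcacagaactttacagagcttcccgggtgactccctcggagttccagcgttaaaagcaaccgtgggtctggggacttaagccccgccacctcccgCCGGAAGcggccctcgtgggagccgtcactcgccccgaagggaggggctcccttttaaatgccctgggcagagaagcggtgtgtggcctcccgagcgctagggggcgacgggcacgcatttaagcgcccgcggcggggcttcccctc
NDUFV3, chr21:42893059-42893308, plus strand: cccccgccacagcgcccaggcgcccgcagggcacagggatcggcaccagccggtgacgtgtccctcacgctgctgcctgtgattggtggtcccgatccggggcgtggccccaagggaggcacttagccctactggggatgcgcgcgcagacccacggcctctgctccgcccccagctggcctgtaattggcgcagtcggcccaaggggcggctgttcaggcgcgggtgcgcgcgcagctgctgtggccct
COX7B2, chr4:46909246-46909495, minus strand: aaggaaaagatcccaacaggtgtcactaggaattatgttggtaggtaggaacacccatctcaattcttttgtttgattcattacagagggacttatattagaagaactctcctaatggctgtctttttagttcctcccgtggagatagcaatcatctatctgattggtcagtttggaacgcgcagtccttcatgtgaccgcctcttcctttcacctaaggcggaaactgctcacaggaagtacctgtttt
COX7B, chrX:77899218-77899467, plus strand: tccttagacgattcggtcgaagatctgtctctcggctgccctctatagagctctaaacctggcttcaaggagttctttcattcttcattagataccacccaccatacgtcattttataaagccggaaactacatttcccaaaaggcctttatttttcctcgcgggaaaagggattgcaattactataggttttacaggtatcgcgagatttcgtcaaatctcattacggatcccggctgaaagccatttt
The COX7B2 window holds 43.2% G and C and 5 CpG pairs, and the COX7B window 43.2% and 13. The NDUFAF4 window holds 67.2% and 23, and that of NDUFV3 72.8% and 24. The median over the 13269 tested genes with a window was 63.2% and 19 CpG pairs. NDUFAF4 has its ETS core at positions -147 to -141 from the start.

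Over the family, 83 of the 102 genes had a window in the table, 64 of them among the 77 subunits and 10 among the 11 assembly factors. The ETS core stood in 26.6% of the 64 subunit windows (17 genes), 3 of the 10 assembly factor windows and 12.7% of the windows of all tested genes. The motif AAGATGG of YY1 stood in 4.69% of the subunit windows against 3.34% of all, and the E-box CACGTG in 9.38% against 8.0%. The motif of NRF1, a factor known to bind many promoters of respiratory genes, was searched in a longer form and then, after its shares had been seen, by its core GCGCATG; the size of the contrast between subunits and all tested genes depended on the form, and no shares are given for it. Both strands were searched in each case, and in 0 of the 83 windows did matches of different motifs overlap. Over all 27305 windows of the table, including genes not tested, the shares were 8.82% for the ETS core, 3.77% for YY1 and 6.49% for the E-box. These are matches to letters, not measured binding, and they are given as a description.

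COX7B2 had the widest difference of all 102 genes. Its signal was at the floor, 0.61, on the parental array, and 6.49, 5.42 and 6.88 on GR1, GR3 and GR4. All 3 clones were far above the parental array, and GR3 was the lowest of them. The difference was 5.66 ± 0.66 (adjusted p = 0.048), or at least 50.5-fold higher, the parental spot being below the detection limit. COX7B2 entered the test only through the clones in which it is high and its parental value is the floor, so its p depends on that floor (adjusted p = 0.078 with the floor doubled) and its place among the 4 calls is not independent support. COX7B2 is a paralogue of the complex IV subunit COX7B and is known mainly from testis. A dimmer COX7B2 probe did not show it: that probe was at the floor on the parental array, GR1 and GR3, and at 1.60 on GR4. Which of the probes reports the transcript was not tested. The normexp model, which adds an offset of 50 units to every spot, left a difference of 0.45 for COX7B2 on spot and background intensities and of 1.32 on blank-subtracted ones, and in neither case did it pass the test.

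COX7B itself, the isoform used in most tissues, had signals of 11.77 on the parental array and 11.28, 11.35 and 11.43 on the clones. All 3 clones lay below the parental array, by a mean of -0.42 ± 0.12 (adjusted p = 0.131), which did not pass the test. The 2 genes thus had differences of opposite sign.

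NDUFV3, an accessory subunit in the NADH-oxidizing arm of complex I, had signals of 7.45 on the parental array and 8.63, 8.57 and 8.59 on GR1, GR3 and GR4. The clones lay close together (SD 0.030, n = 3), and all were more than 2-fold above the parental array. The rise was 1.15 ± 0.11, 2.21-fold (adjusted p = 0.044). It was the only one of the 77 subunits to pass the test.

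NDUFAF4 acts with NDUFAF3 early in the building of the arm of complex I that binds coenzyme Q. Its signals were 7.11 on the parental array and 8.41, 8.41 and 8.30 on the clones. The rise was 1.26 ± 0.12, 2.40-fold (adjusted p = 0.044). EMC8 went from 7.86 on the parental array to 9.23, 8.99 and 9.12, a rise of 1.25 ± 0.15 (adjusted p = 0.048). In each of these genes the 3 clones were close together and did not overlap the parental value.

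**Figure D1:**
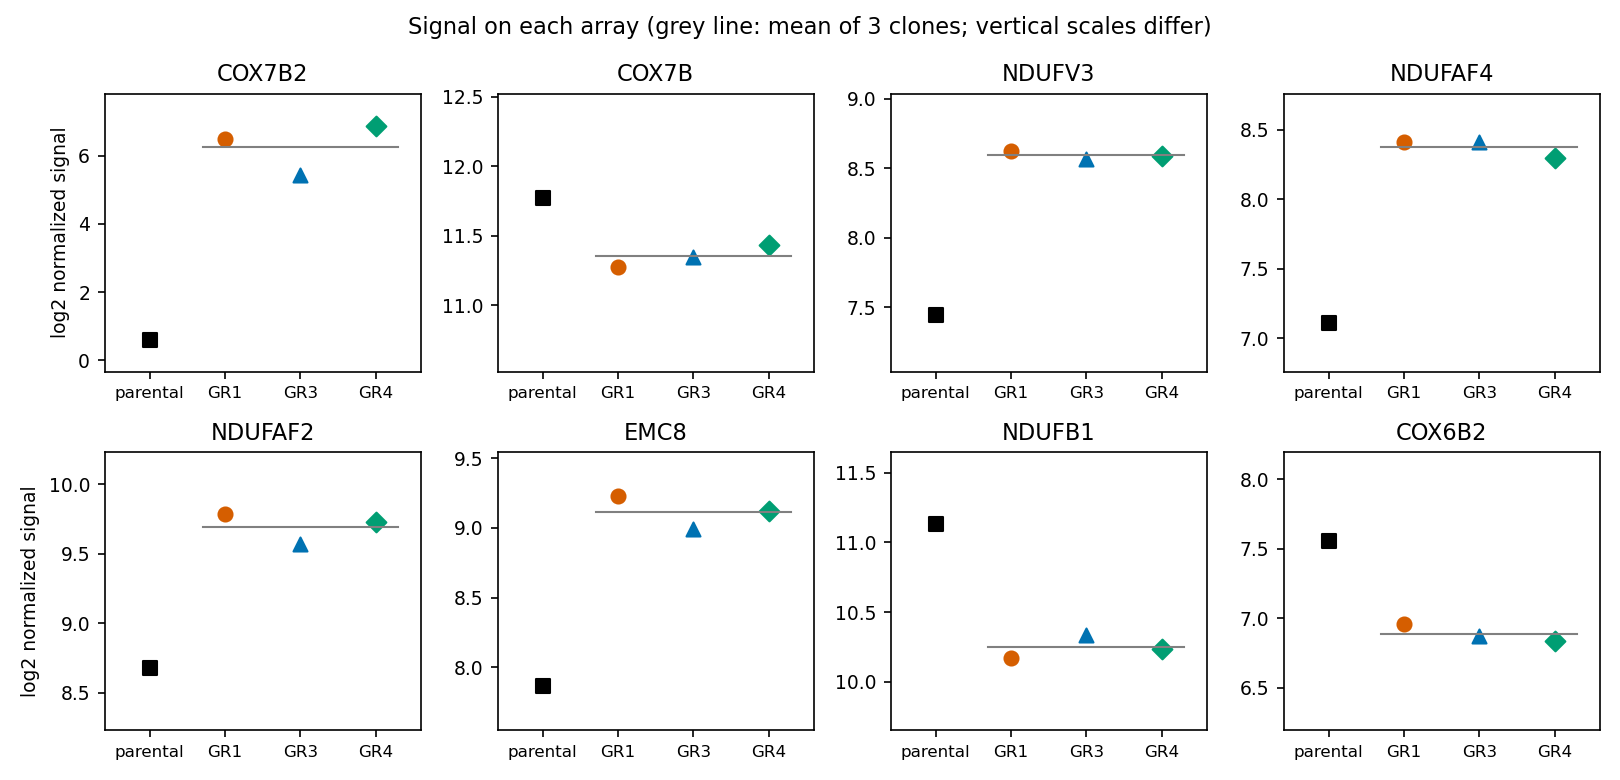
Log2 normalized signal of 8 genes on the parental array (square) and the clones GR1 (circle), GR3 (triangle) and GR4 (diamond), 1 array each, with the mean of the 3 clones as a grey line; vertical scales differ between genes. COX7B2, NDUFV3, NDUFAF4 and EMC8 passed the test and the others did not; COX7B2 goes from the floor at 0.61 to between 5.42 and 6.88.

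NDUFAF4 was one of 11 assembly factors with names in NDUFAF or SDHAF, 8 for complex I and 3 for complex II. DMAC2, a complex I assembly factor caught by its older name, is not among them and differed by 0.11 ± 0.12. Of these 11, 9 were higher than the parental array in all 3 clones and 0 were lower in all 3, where 35.3% of all tested genes were higher and 37.8% lower in all 3. Their median difference was 0.50, against -0.02 for all tested genes. Apart from NDUFAF4 none passed the test.

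NDUFAF2, which joins a late intermediate of complex I in the place of its paralogue NDUFA12, had signals of 8.68 on the parental array and 9.78, 9.57 and 9.73 on the clones. The difference of 1.02 ± 0.14 just missed the threshold (adjusted p = 0.053). NDUFAF8, the partner of NDUFAF5, had 8.94 on the parental array and 10.33, 9.79 and 10.36 on the clones, a difference of 1.22 ± 0.29 (adjusted p = 0.099). NDUFAF1, part of the complex that builds the membrane arm, had 6.86 and then 7.87, 7.53 and 7.78, a difference of 0.86 ± 0.18 (adjusted p = 0.083). GR3 was the lowest clone for all 3 of these genes.

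The remaining factors of complex I lay closer to the parental line. The methyltransferase NDUFAF7 had a difference of 0.55 ± 0.22, NDUFAF6 of 0.50 ± 0.17, NDUFAF3 of 0.40 ± 0.14 and the hydroxylase NDUFAF5 of 0.18 ± 0.11. The 3 factors of complex II came next. SDHAF4, which binds SDHA once its flavin is attached, differed by 0.27 ± 0.21. SDHAF2, which promotes that attachment, differed by 0.00 ± 0.13. SDHAF3, which helps SDHB receive its iron-sulfur clusters, differed by -0.14 ± 0.41, with GR1 above and GR3 below the parental array.

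The 77 subunits as a set lay slightly the other way, but their direction depended on how the arrays were scaled. After quantile normalization their median difference was -0.19, with 42 of 77 lower than the parental array in all 3 clones and 13 higher in all 3. After median scaling, which shifts the median of all genes by 0.06, their median was 0.04, with 19 lower and 31 higher in all 3 clones. With no normalization, which moves the median of all genes up by 0.10 to 0.09, it was 0.08. Most subunits lie among the 4148 brightest tested genes. Of that group 37.5% were lower and 44.5% higher in all 3 clones after quantile normalization, against 22.7% and 60.4% after median scaling. Set against the median of that group, the subunits were lower by 0.25 after quantile normalization, 0.26 after median scaling and 0.26 with no normalization. With the normexp model they were lower by 0.23 on blank-subtracted intensities and by 0.19 on spot and background intensities. The assembly factors kept a median above 0 in all 5 treatments, from 0.30 to 0.67, with 9 of 11 higher in all 3 clones in 4 of them and 6 of 11 in the fifth, normexp on spot and background intensities.

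**Figure D2:**
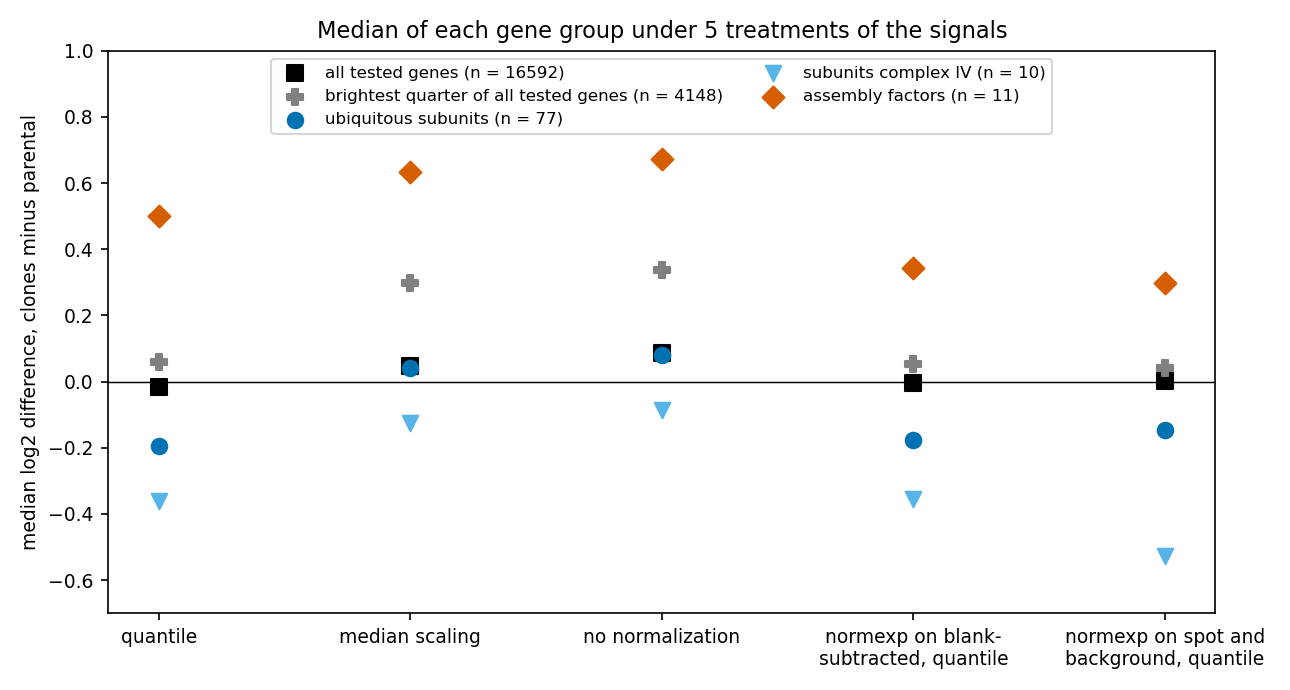
Median log2 difference, clones minus parental, of 5 gene groups (symbols) under quantile normalization, median scaling, no normalization and normexp background correction of 2 kinds of input, each with quantile normalization. The subunit median moves from -0.19 to 0.08 with the treatment, while the assembly factor median stays between 0.30 and 0.67.

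Most single differences were small. Of the 102 genes, 94 differed by less than 0.85, the smallest size among all called genes, and 79 by less than 0.5. The median standard error of a member was 0.15. No difference smaller than 0.85 was called after this processing, but that bound belongs to the processing. Normexp on blank-subtracted intensities called 12 of the 102 members, or 11.8%, against 13.3% of all tested genes. Among the 12 were ATP5PD, UQCRC1, NDUFAB1, ATP5MJ and NDUFB5. Their differences after quantile normalization alone were -0.44, -0.51, 0.51, 0.55 and -0.63. Normexp on spot and background intensities called 0 members, against 0.88% of all tested genes, and moved several differences far from the values given here. They went to -2.58 for COX6A1, -1.75 for NDUFA3, -1.71 for NDUFA4, -0.71 for UQCRH, -0.18 for UQCRB and 0.54 for SDHC. On each array the log2 background intensity of the gene probes followed their log2 spot intensity (Pearson r from 0.93 to 0.96). What this does to the differences was not tested.

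Complex I, the NADH dehydrogenase, was represented by 36 subunits, 6 core and 30 accessory. Its median difference was -0.17 after quantile normalization and 0.07 after median scaling, and 17 of 36 were lower and 5 higher in all 3 clones after quantile normalization, against 9 lower and 14 higher after median scaling. Core and accessory subunits had medians of -0.14 and -0.17. Among the core subunits, most of which carry the flavin or iron-sulfur clusters, NDUFS8 was the lowest at -0.31 ± 0.15 and NDUFV2 the highest at 0.19 ± 0.11. None passed the test.

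The lowest complex I gene was NDUFB1, a small accessory subunit of the membrane arm. Its signals were 11.13 on the parental array and 10.17, 10.33 and 10.23 on GR1, GR3 and GR4. The clones did not overlap the parental value, and the difference of -0.89 ± 0.13 narrowly missed the threshold (adjusted p = 0.054). NDUFA3, another accessory subunit, had 10.56 and then 9.57, 10.01 and 9.79, a difference of -0.77 ± 0.22 (adjusted p = 0.123).

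NDUFA13, also known as GRIM-19, differed by -0.77 ± 0.15 (adjusted p = 0.073) by its brighter probe, whereas its dimmer probe gave 0.10 ± 0.16. NDUFA2 (-0.73 ± 0.21) and NDUFB5 (-0.63 ± 0.12) were the other accessory subunits lowest in the clones. At the other end, after NDUFV3, stood NDUFAB1, the mitochondrial acyl carrier protein, which serves fatty acid synthesis as well as complex I. Its signals were 9.85 on the parental array and 10.38, 10.39 and 10.31 on the clones, a difference of 0.51 ± 0.11 (adjusted p = 0.086).

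**Figure D3:**
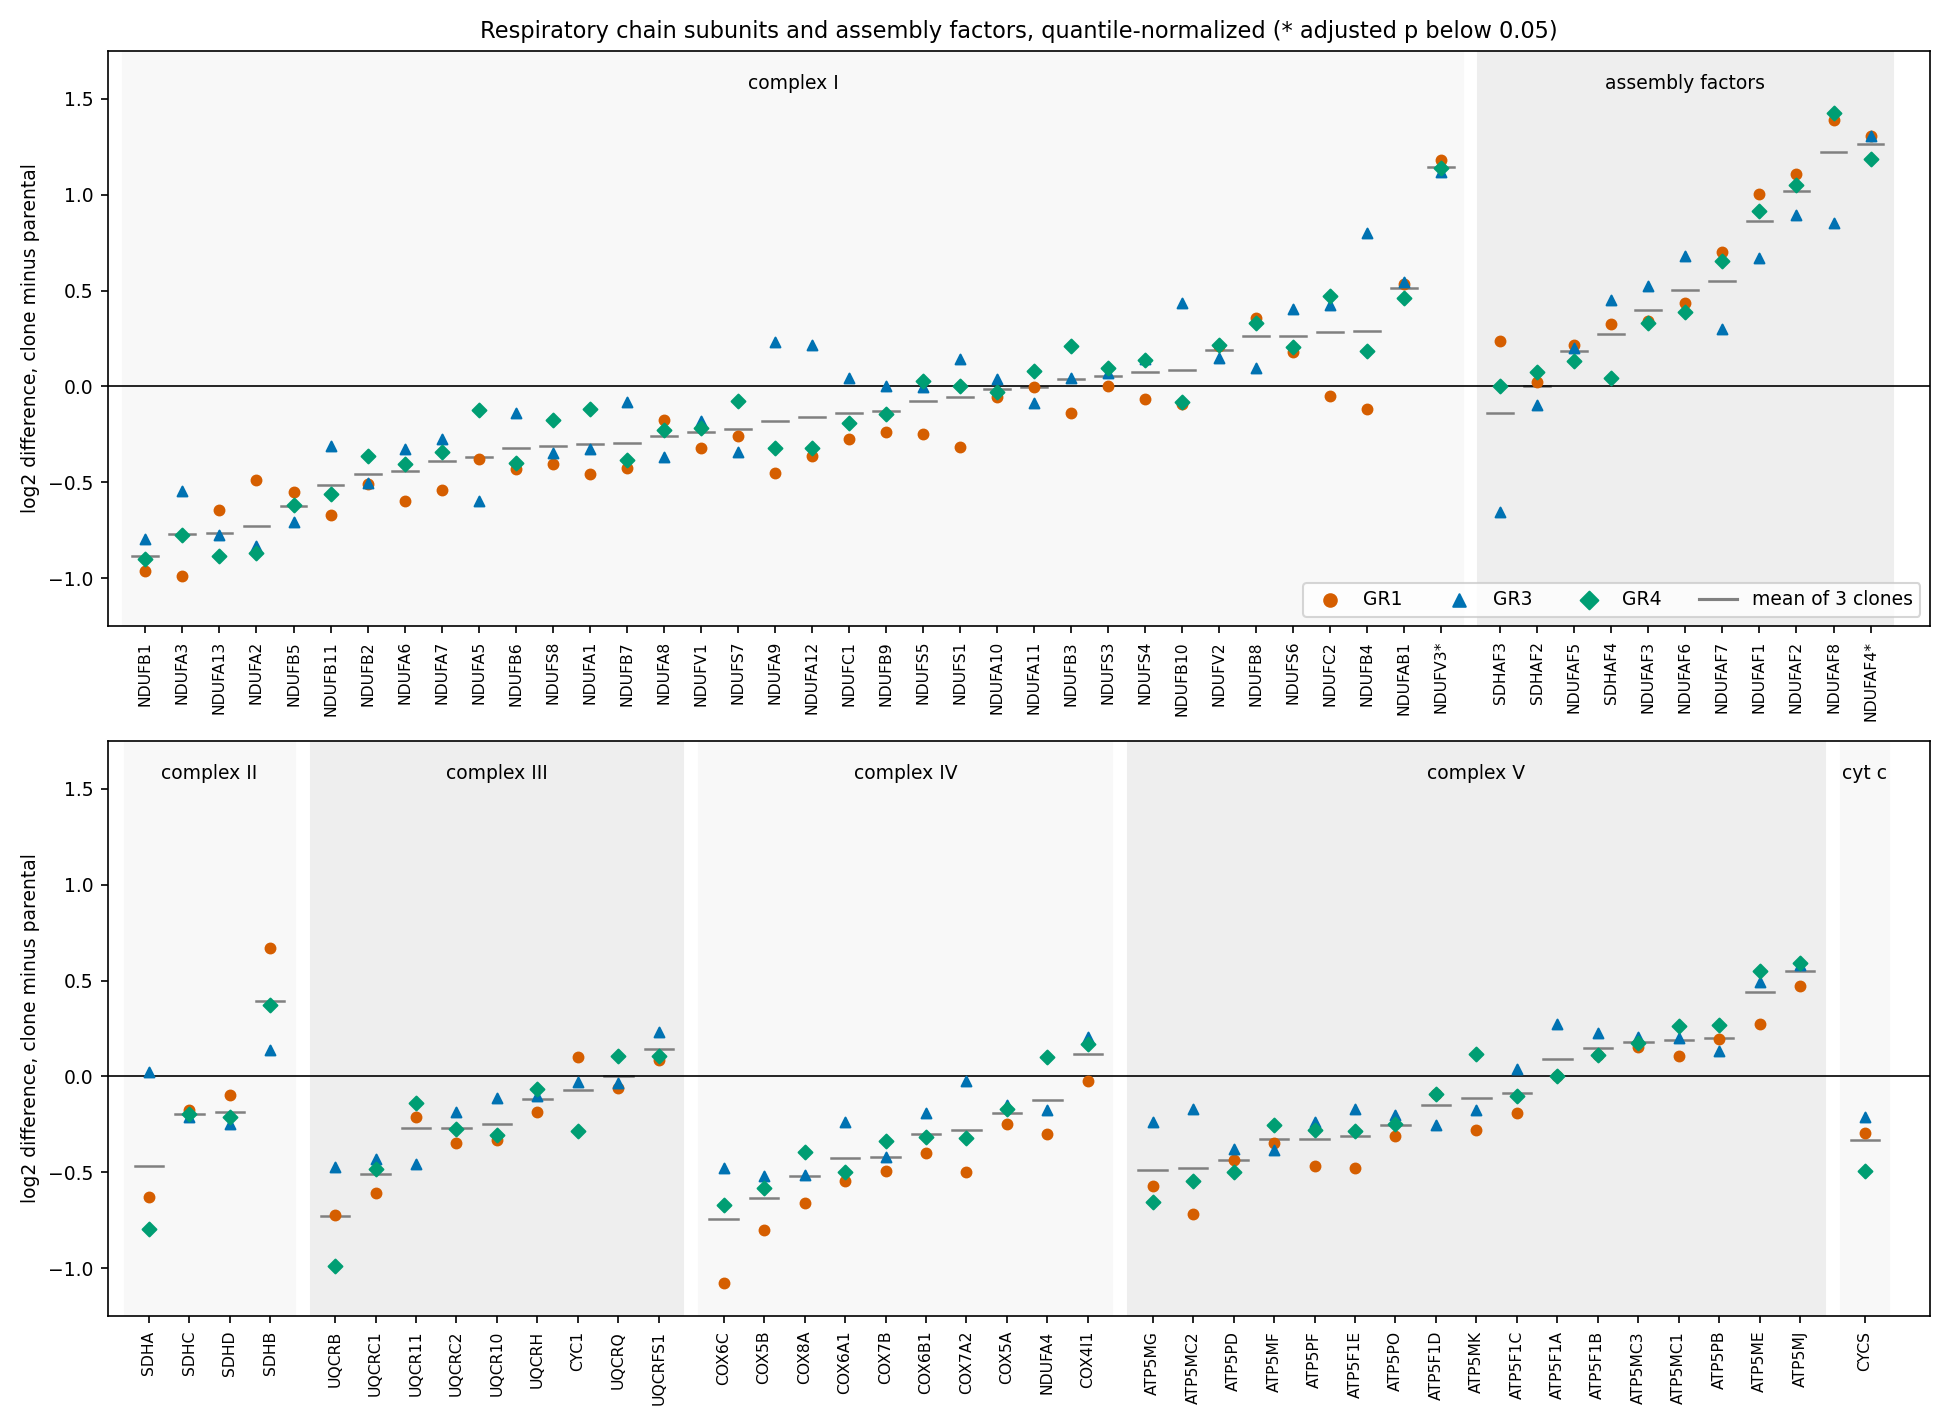
Log2 difference of each clone from the parental array for the 77 subunits by complex and the 11 assembly factors, ordered by the mean of the 3 clones (grey bar); circles are GR1, triangles GR3 and diamonds GR4. NDUFV3 at 1.15 and NDUFAF4 at 1.26 carry a star for passing the test; 10 of the 11 assembly factors have a mean above 0.

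Complex II, or succinate dehydrogenase, is encoded wholly in the nucleus and had all 4 subunits on the array. The flavoprotein SDHA had signals of 10.42 on the parental array and 9.79, 10.44 and 9.62 on GR1, GR3 and GR4. GR3 matched the parental line while GR1 and GR4 lay lower, and the mean difference was -0.47 ± 0.39. The iron-sulfur subunit SDHB had 10.76 and then 11.43, 10.90 and 11.13, higher in all 3 clones by a mean of 0.39 ± 0.25. The membrane anchors SDHC and SDHD differed by -0.19 ± 0.11 and -0.19 ± 0.12, and none of the 4 passed the test. The median of the 4 was -0.19 after quantile normalization and 0.08 after median scaling. SDHC kept its sign in 8 and SDHD in 9 of 12 alternative treatments of the data.

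Complex III, the cytochrome bc1 complex, had 9 nuclear subunits, with a median difference of -0.25 after quantile normalization, 6 being lower and 1 higher in all 3 clones, and of 0.02 after median scaling, with 2 lower and 2 higher. UQCRB was the lowest, with 5.53 on the parental array and 4.81, 5.06 and 4.54 on the clones, a difference of -0.73 ± 0.24 (adjusted p = 0.159). UQCRC1, one of the large core-named proteins without a redox centre, had 10.15 and then 9.54, 9.72 and 9.67, a difference of -0.51 ± 0.13 (adjusted p = 0.107). The Rieske iron-sulfur protein UQCRFS1 was the highest, with 11.05 on the parental array and 11.14, 11.29 and 11.16 on the clones, a difference of 0.14 ± 0.12. UQCRQ followed with 12.04 and then 11.98, 12.01 and 12.15, a difference of 0.00 ± 0.13, but of 2.02 with normexp on spot and background intensities. UQCRH differed by -0.12 ± 0.12. CYC1, cytochrome c1, differed by -0.07 ± 0.20. Cytochrome c itself, CYCS, had a dim probe with 4.0 on the parental array and 3.70, 3.78 and 3.50 on the clones, a difference of -0.33 ± 0.16 (adjusted p = 0.268).

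Complex IV, cytochrome c oxidase, had the lowest median of the 5 complexes under each of the 5 treatments of the signals. The median of its 10 subunits was -0.36 after quantile normalization and -0.13 after median scaling, and 8 of 10 were lower in all 3 clones and 0 higher in all 3 after quantile normalization, against 5 lower and 2 higher after median scaling. No subunit passed the test. Its catalytic subunits are encoded by mitochondrial DNA and were not measured, so these 10 are the nuclear-encoded ones that surround them.

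COX6C had 11.48 on the parental array and 10.40, 11.0 and 10.81 on the clones, a difference of -0.74 ± 0.28 (adjusted p = 0.191). COX5B had 11.37 and then 10.58, 10.85 and 10.79, a difference of -0.63 ± 0.16 (adjusted p = 0.107). In both genes all 3 clones lay below the parental array and GR1 was the lowest. COX8A (-0.52 ± 0.15), COX6A1 (-0.43 ± 0.18), COX6B1 (-0.30 ± 0.14), COX7A2 (-0.28 ± 0.23) and COX5A (-0.19 ± 0.11) were likewise below the parental array in all 3 clones. The exceptions were COX4I1, which starts the assembly of the complex around its first core subunit, with 12.21 on the parental array and 12.19, 12.42 and 12.38 on the clones (0.12 ± 0.15), and the gene the array names NDUFA4, with 12.31 and then 12.01, 12.14 and 12.41 (-0.12 ± 0.20). The symbol NDUFA4 is an older name of a subunit of complex IV and also of a pseudogene, and which of them the probe reads was not tested.

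**Figure D4:**
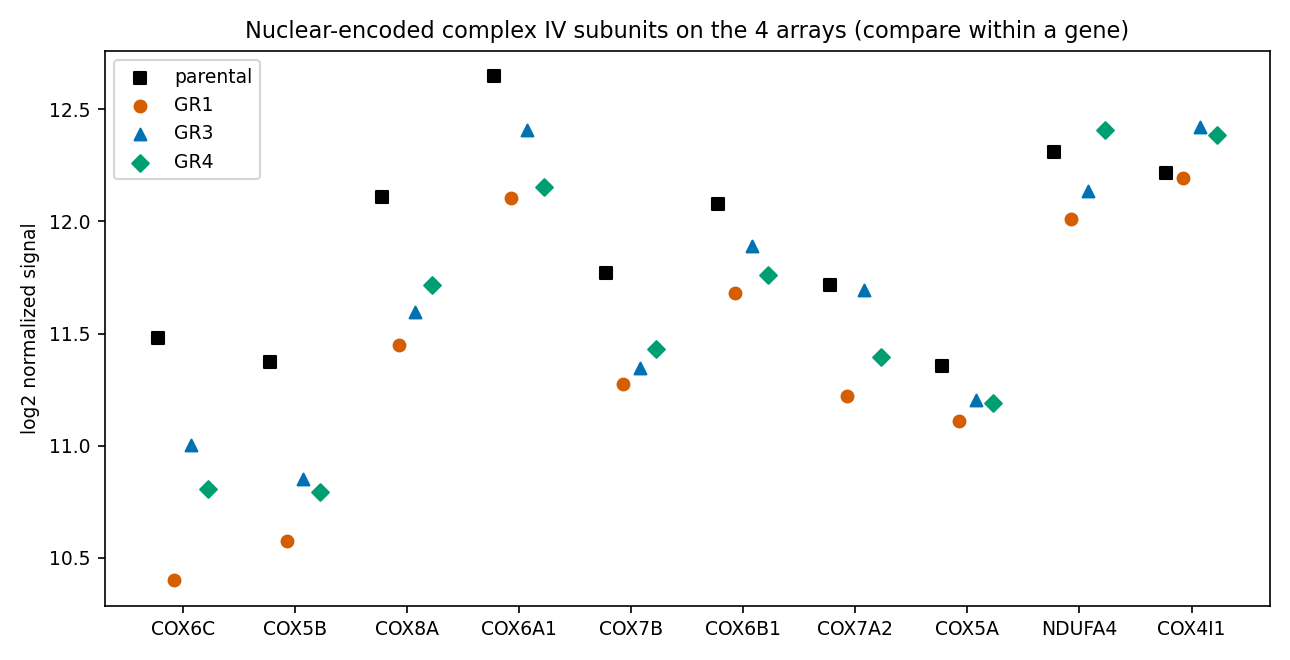
Log2 normalized signal of the 10 nuclear-encoded complex IV subunits on the parental array (square), GR1 (circle), GR3 (triangle) and GR4 (diamond), ordered by the mean difference; heights may be compared within a gene but not between genes. Under quantile normalization GR1 is the lowest of the clones in all 10, and the parental array is above all 3 clones in 8.

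The isoforms and paralogues of complex IV subunits, some of which replace the usual ones in single tissues, showed no common direction. COX6B2, known from testis, had 7.55 on the parental array and 6.96, 6.87 and 6.83 on the clones, a difference of -0.67 ± 0.12 (adjusted p = 0.066), beside -0.30 ± 0.14 for its partner COX6B1. The lung isoform COX4I2 had a dim signal of 3.91 on the parental array and 4.22, 4.13 and 4.08 on the clones, a difference of 0.23 ± 0.12. The muscle isoforms COX6A2 and COX7A1 differed by 0.01 ± 0.15 and -0.13 ± 0.32. COX7A2L, which takes part in joining complexes III and IV, differed by 0.13 ± 0.11. COXFA4L2, formerly NDUFA4L2 and known as induced by low oxygen, was near the floor on every array, with 1.14 on the parental array and 1.37, 0.61 and 1.08 on the clones. COX8C, known from testis, was at the floor on the parental array and at 1.57, 0.73 and 0.98 on the clones. It was tested only through the clones, its difference of 0.49 ± 0.39 did not pass (adjusted p = 0.466), and no difference was left with the floor doubled. Of these 8 isoforms and paralogues COX7B2 alone passed the test.

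Complex V had 17 subunits with a median difference of -0.11, 8 lower and 6 higher in all 3 clones after quantile normalization, and of 0.13, 2 lower and 10 higher, after median scaling. The parts of the enzyme differed in their medians without any gene passing the test: -0.08 for the 5 subunits of the catalytic head and central stalk, -0.29 for the 4 of the peripheral stalk, 0.18 for the 3 genes that encode the c subunit, and -0.11 for 5 small membrane subunits. ATP5MJ, a small membrane subunit, was the highest, with 8.5 on the parental array and 8.97, 9.08 and 9.09 on the clones, a difference of 0.55 ± 0.12 (adjusted p = 0.086). ATP5ME, another of them, had 10.54 and then 10.82, 11.04 and 11.09, a difference of 0.44 ± 0.16.

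ATP5MG, also a small membrane subunit, was the lowest, with 7.32 on the parental array and 6.76, 7.08 and 6.67 on the clones, a difference of -0.49 ± 0.22. ATP5MC2 had 11.66 and then 10.94, 11.49 and 11.12, a difference of -0.48 ± 0.26, whereas ATP5MC1 and ATP5MC3, which encode the same mature c subunit, differed by 0.19 ± 0.12 and 0.18 ± 0.11. The inhibitor ATP5IF1, which stops ATP synthase from running backwards, differed by -0.27 ± 0.11 and was lower in all 3 clones.

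Within the clones, GR1 tended to be the lowest. It was the lowest of the 3 in 52 of 77 subunits, where GR1 was lowest in 30.8% of all tested genes, and in 10 of 10 complex IV subunits. The subunit medians were -0.29 in GR1, -0.15 in GR3 and -0.19 in GR4. GR3 was the highest clone in 43 of 77 subunits, against 35.2% of all tested genes. The GR1 count depended on the scaling. It was 43 of 77 after median scaling, 23 with no normalization and 30 after normexp on spot and background intensities. Of all tested genes, 26.2%, 14.7% and 27.8% had GR1 lowest in the same order, against 55.8%, 29.9% and 39.0% of the subunits. For complex IV the GR1 count was 10, 6 and 4 of 10 in that order. Among the 11 assembly factors GR1 was the lowest clone in 0. With 1 array per clone, a clone and its array cannot be told apart.

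Probes of the same gene did not always give the same sign. Of 10 genes with 2 tested probes, 5 pairs agreed in sign and 5 did not (NDUFA13, NDUFC2, SDHC, ATP5PF and the pseudogene ATP5MFP3). For ATP5PF, part of the peripheral stalk, the brighter probe gave -0.33 and the dimmer 0.59. Many genes of this family have processed pseudogenes, and cross-hybridization was not tested.

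Other genes of the same pathways were examined as lists. Of 19 assembly factors of complex I, 9 of which the naming rule had also taken in (the 8 named NDUFAF, and DMAC2), 16 were higher and 1 lower in all 3 clones, with a median of 0.34, and NDUFAF4 alone rose. Among the others TMEM70, which serves complex I and ATP synthase, was the highest at 0.57 ± 0.26 and TIMMDC1 the lowest at -0.36 ± 0.15. Of 9 factors of complexes II and III, 3 of them among the 11, 7 were higher and 0 lower in all 3 clones, with a median of 0.41 and 0 called; the complex III factor UQCC3 was the highest at 0.91 ± 0.16 (adjusted p = 0.064).

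Of 23 assembly factors of complex IV, 14 were higher and 8 lower in all 3 clones, with a median of 0.17. COA7 rose from 6.21 on the parental array to 8.24, 7.90 and 7.92, by 1.81 ± 0.19 (adjusted p = 0.047), while COX14 was the lowest at -0.66 ± 0.19. The 3 ATP synthase factors had a median of 0.04 (-0.05 with normexp on spot and background intensities), from TMEM242 at -0.14 ± 0.28 to ATPAF2 at 0.14 ± 0.14.

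Genes that keep and transcribe mitochondrial DNA had a median of 0.42, and 14 of 19 were higher and 2 lower in all 3 clones. RNASEH1, which removes RNA primers from DNA, rose from 8.26 to 9.61, 9.41 and 9.43, by 1.22 ± 0.14 (adjusted p = 0.048). TFAM, which packages mitochondrial DNA and starts its transcription, had the highest difference, from 6.69 to 8.77, 8.17 and 8.53, or 1.80 ± 0.28, and missed the threshold (adjusted p = 0.058). MTERF1 was the lowest at -0.29 ± 0.26. Of 15 regulators of mitochondrial biogenesis 0 were called. The paralogous coactivators PPARGC1B and PPARGC1A stood at opposite ends, PPARGC1B at 1.16 ± 0.17 (adjusted p = 0.054) and PPARGC1A at -1.21 ± 0.71, the latter with 6.41 on the parental array, 6.14 on GR3 and 4.75 and 4.71 on GR1 and GR4.

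The enzymes that feed the chain gave few calls. None of 17 genes of the tricarboxylic acid cycle and pyruvate dehydrogenase passed the test; their median was 0.11 after quantile normalization (8 of 17 higher in all 3 clones) and 0.38 after median scaling (13 of 17), with citrate synthase (CS) the highest at 0.67 ± 0.11 (adjusted p = 0.064) and IDH2 the lowest at -0.74 ± 0.61. Of 7 kinases and phosphatases of pyruvate dehydrogenase, 6 were lower in all 3 clones. PDK4, a kinase that shuts pyruvate dehydrogenase off, fell from 3.69 to 1.97, 2.14 and 1.90, a difference of -1.69 ± 0.15 (adjusted p = 0.044), which shrank to -0.14 with normexp on spot and background intensities. PDK1, another such kinase, fell from 6.64 to 5.51, 5.29 and 5.34, a difference of -1.26 ± 0.15 (adjusted p = 0.048). The phosphatase PDP2 was the highest of the list at 0.60 ± 0.23.

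Among 13 genes of coenzyme Q synthesis, PDSS1, a subunit of the enzyme that makes its isoprenoid tail, rose from 5.74 to 7.44, 7.25 and 7.29, by 1.59 ± 0.14 (adjusted p = 0.044). The median of that list was -0.16, 7 genes being lower in all 3 clones, and COQ10B was the lowest at -0.64 ± 0.22. Of 8 other dehydrogenases that pass electrons to coenzyme Q none was called; DHODH, the pyrimidine synthesis enzyme of the inner membrane, had the highest difference at 1.42 ± 0.28 (adjusted p = 0.076) and the proline dehydrogenase PRODH the lowest at -1.87 ± 0.24 (adjusted p = 0.051). The 13 carriers, channels and uncoupling proteins had a median of -0.08 after quantile normalization and 0.18 after median scaling, and 0 calls. They ran from SLC25A6 at -0.31 ± 0.13 to SLC25A31 at 0.67 ± 0.29, both adenine nucleotide carriers.

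**Figure D5:**
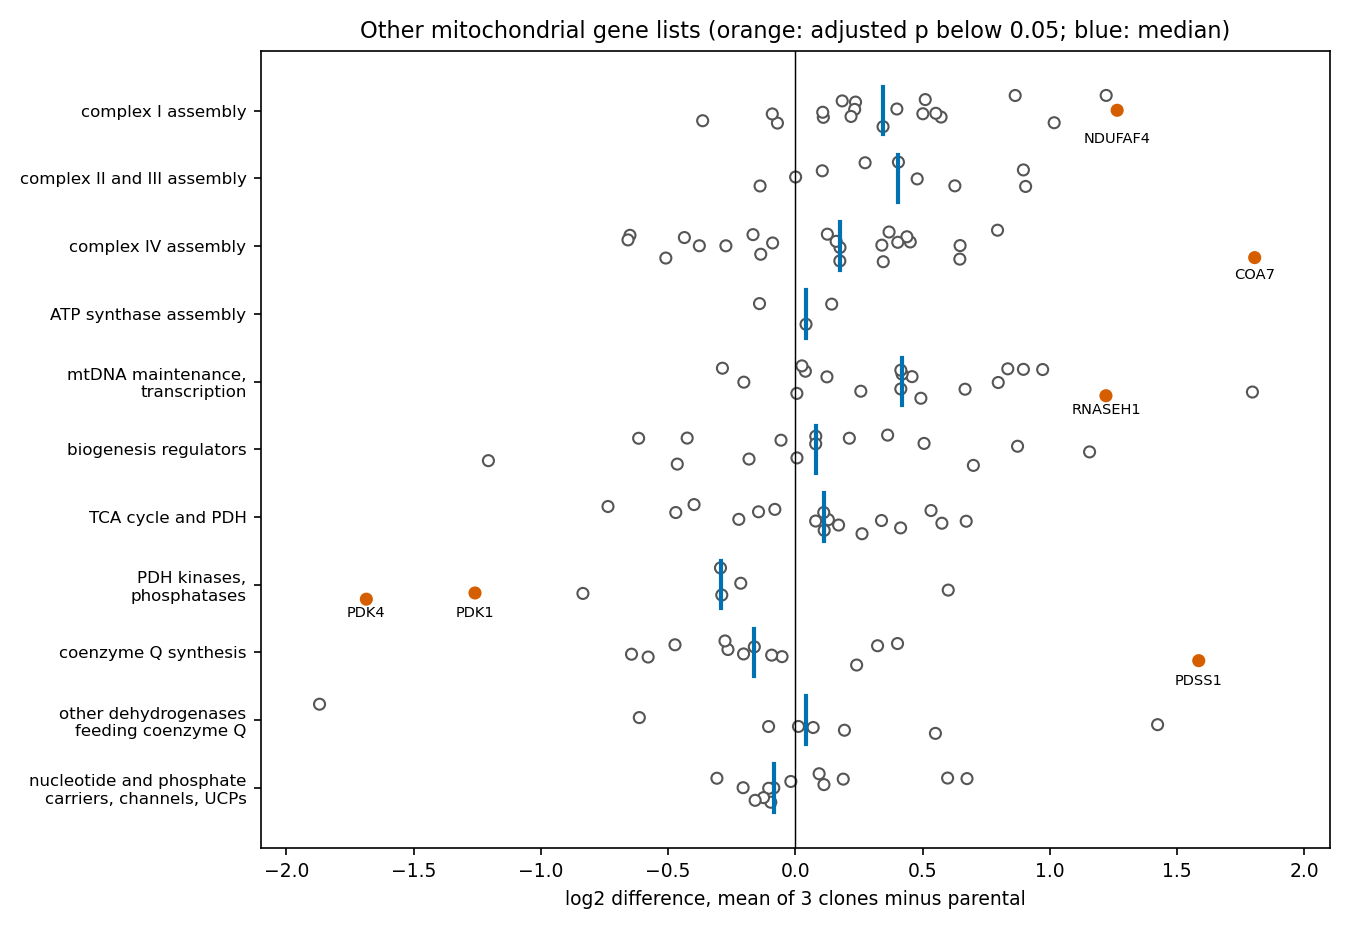
Log2 difference, mean of the 3 clones minus parental, for the genes of 11 mitochondrial lists (1 point a gene, spread vertically at random), with the list median as a blue bar and genes past the test in orange with their names. The medians of the complex I, complex II and III and mitochondrial DNA lists lie at 0.34 to 0.42, and that of the pyruvate dehydrogenase kinases and phosphatases at -0.29.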

How the data were processed

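The deposited scanner files hold the median intensity of each spot on a Toray 3D-Gene chip, hybridized with Cy5-labelled amplified RNA, before background subtraction, per the file headers. The authors also deposited a table of intensities with the blank-spot background removed and each array's median set to 25. Here the blank level (the average of 2680 blank spots without their extreme tails, 90% being kept) was taken from every spot intensity. Left out were 11 gene probes with a faulty spot. The 4 arrays were quantile normalized, raised to a floor of 1.52 units, and log2 transformed. Tested were probes over the limit in the parental sample or in each clone, 22796 probes for 16592 genes, and the brightest probe stood for its gene.

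Clones and parental line were set against each other with limma 3.58.1 (lmFit and eBayes, R 4.3.3), two-sided. Its p-values were adjusted by Benjamini-Hochberg over the tested probes, with a threshold of 0.05. The 2 residual degrees of freedom come from the spread of the clones, which the parental array is assumed to share. The procedure was tested on simulated data. Background model, normalization, filter, floor, source table, probe choice and left-out clones were varied. Gene names and upstream sequences came from RefSeq, build GRCh38.p14. Scanner software versions are not given in the sources used here.

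The members and gene lists were chosen with earlier results of these data known. Named are members past the test, those 2-fold apart in all 3 clones or above the limit on 1 side, the 2 highest and 2 lowest of each complex, CYCS, and isoforms with their usual partners. Also named are the called, highest and lowest genes of each list. The remaining members named were chosen after their values were seen. COX7C and other family members without a named probe were not analysed here.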

Additional observations from a re-analysis of the deposited data

How the results depend on the processing

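With 1 parental array and 3 clones from 1 selection, no result is independent of that array, and the number of arrays limits every value. Respiratory chain genes called numbered 4 under quantile normalization of blank-subtracted intensities, where 674 genes were called in all. The counts were 0 of 146 with normexp on spot and background intensities and 12 of 2203 (6 higher, 6 lower) with normexp on blank-subtracted intensities. They were 5 of 1018 with median scaling or the authors' deposited table. Of all tested genes, 0.88%, 13.3% and 6.14% were called in this order, against 0%, 11.8% and 4.9% of the members. The counts were 0 of 208 with no normalization. They were 7 of 2127 (6 higher, 1 lower, NDUFB1) when genes had to pass the limit on every array, or 7% of members against 13.4% of all tested genes. With no filter they were 0 of 0, though 28 members and 5403 genes had an unadjusted p under 0.05. A doubled floor gave 2 of 827 and the mean over a gene's probes 4 of 808. Leaving out a clone gave 0 of 0 each time, the smallest adjusted p being 0.0758 to 0.221; unadjusted p-values under 0.05 numbered 3545 to 6090 over all genes. The median difference of the 102 genes was -0.13, and turned to 0.0891 with median scaling or the deposited table and 0.13 with no normalization. It was -0.15 to -0.08 with a clone left out and -0.13 to -0.07 in the other alternatives. Members lower in all 3 clones numbered 44, and 20 with median scaling or the deposited table and 19 with no normalization. The array as a whole moved the same way. Of all 16592 tested genes, 6276 were lower in all 3 clones after quantile normalization, 5310 after median scaling and 4705 with no normalization. Genes 2-fold apart in all 3 clones numbered 4, all higher, but 0 with normexp on blank-subtracted intensities, 6 (3 higher, 3 lower) with normexp on spot and background intensities, 6 (all higher) with median scaling, the deposited table or no normalization, and 3 when genes had to pass the limit on every array. Of all tested genes, 7.26% were 2-fold apart, then 2.49%, 1.93%, 7.86% to 7.92% and 7.19% in the same order. At 1.5-fold, 10 members were apart in all 3 clones, 7 higher and 3 lower, against 10.1% and 8.48% of all tested genes. NDUFAF4 was called in 6, NDUFV3 in 6 and EMC8 in 5 of 12 alternatives, and COX7B2 in 3 of 11, and all 4 stayed higher in every one of them. Of the called genes of the other lists, PDK4 was called in 4, PDK1 in 5, PDSS1 in 6, COA7 in 5 and RNASEH1 in 5 of 12 alternatives, each with the same sign throughout; with normexp on spot and background intensities PDSS1 was 0.17 and PDK1 -0.33. Why the counts move with the background model and the filter was not tested. No paired analysis was possible because there is 1 parental array and the clones carry no pairing.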

Other observations

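The neighbours of the genes that rose differed among themselves. Around COX7B2 on chromosome 4, the nearest tested genes were GABRA2 and GABRA4, both subunits of GABA receptors, with log2 differences of 0.14 ± 0.19 and -0.11 ± 0.23. The 3 tested genes on each side were not called, the highest being COMMD8 at 0.92 ± 0.15 (adjusted p = 0.061 by limma). Beside NDUFAF4 on chromosome 6, MMS22L, which acts in the repair of stalled replication forks, rose from 3.64 on the parental array to 4.84, 5.03 and 4.95 on GR1, GR3 and GR4, by 1.30 ± 0.13 (adjusted p = 0.045 by limma). On its other side GPR63 had -0.88 ± 0.22 (adjusted p = 0.102 by limma). Beside NDUFV3 on chromosome 21, WDR4, a partner of a transfer RNA methyltransferase, had 1.26 ± 0.37 (adjusted p = 0.130 by limma), and ERVH48-1 -0.08 ± 0.24. These genes were looked at after the values of the family were seen.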
